A study of Mus musculus with 3 samples.

Results

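The 5 genes described here encode signals that the mouse oocyte sends to the granulosa cells around it and the channel that couples the 2 cell types. They are the growth factor genes Gdf9, Bmp15, Bmp6 and Fgf8 and the connexin gene Gja4. All 2 kb windows that overlapped the gene bodies in the GENCODE M21 annotation of GRCm38, or lay within 10 kb on both sides, were taken. This gave 94 body windows and 50 flank windows, or 144 of the 1186323 valid windows, and no window of the 5 loci was missing. The measurement was ultra-low-input native chromatin immunoprecipitation and sequencing (ChIP-seq) of histone H3 trimethylated on lysine 36 (H3K36me3) in fully grown germinal vesicle (GV) oocytes. Each of 3 replicates was a pool of about 280 oocytes from wildtype C57BL6/Babr mice aged 25 days, so there was 1 group and no treatment or genotype contrast.

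H3K36me3 is laid down along gene bodies while RNA polymerase II transcribes them, and in growing oocytes it marks the chromatin that gains DNA methylation. GDF9, BMP15 and BMP6 are ligands of the TGF-beta superfamily that signal through serine/threonine kinase receptors and SMAD proteins, and FGF8 signals through FGF receptor tyrosine kinases. Connexin 37, the product of Gja4, forms the oocyte side of the gap junctions through which granulosa cells feed the oocyte.

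The promoters are shown because a window at the gene start was called for both H3K36me3 and H3K4me3 at each gene whose promoter is printed. RefSeq (GRCm38.p6) promoters, running from 250 bases before to 50 bases after the start site, were matched for Bmp15, Bmp6 and Gja4 but not for Gdf9 and Fgf8. They lie at chrX:6320675-6320974 (minus strand), chr13:38345466-38345765 (plus strand) and chr4:127313990-127314289 (minus strand), and are written 5′ to 3′ along the gene. Capitals mark matches on either strand to the E-box CANNTG, the NOBOX elements TAATTG and TAATTA, the GC box GGGCGG and the TATA box TATAAA, and no 2 matches overlapped.
Bmp15: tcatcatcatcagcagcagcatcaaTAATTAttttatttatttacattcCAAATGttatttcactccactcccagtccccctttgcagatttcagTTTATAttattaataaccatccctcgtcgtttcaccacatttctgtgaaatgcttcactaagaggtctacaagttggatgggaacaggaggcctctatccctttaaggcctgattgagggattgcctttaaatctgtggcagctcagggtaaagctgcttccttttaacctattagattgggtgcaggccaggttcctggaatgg
Bmp6: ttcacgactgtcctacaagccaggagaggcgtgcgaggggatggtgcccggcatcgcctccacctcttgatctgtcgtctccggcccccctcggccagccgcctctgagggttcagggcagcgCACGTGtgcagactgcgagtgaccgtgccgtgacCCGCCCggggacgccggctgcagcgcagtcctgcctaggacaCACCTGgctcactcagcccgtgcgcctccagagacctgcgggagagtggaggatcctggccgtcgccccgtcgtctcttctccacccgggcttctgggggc
Gja4: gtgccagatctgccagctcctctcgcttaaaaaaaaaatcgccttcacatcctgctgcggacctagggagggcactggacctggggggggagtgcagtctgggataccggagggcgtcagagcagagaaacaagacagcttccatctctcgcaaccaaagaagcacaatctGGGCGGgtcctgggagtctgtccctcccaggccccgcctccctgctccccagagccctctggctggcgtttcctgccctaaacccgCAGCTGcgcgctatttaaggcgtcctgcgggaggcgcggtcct

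The Bmp15 promoter was AT-rich, with a GC content of 41.7% and 2 CpG dinucleotides, against medians of 52.7% and 7 CpGs over all 32817 promoters of the table. Bmp6 and Gja4 had GC-rich promoters, at 69.3% GC with 27 CpGs and 62.0% GC with 16 CpGs. Of the 3, Bmp15 alone held a TAATTA match, close to the 5′ end of the window shown, which is found in 5.30% of all promoters. TAATTG, found in 8.0% of all promoters, was in none of the 3. Each of the 3 held an E-box, as do 72.3% of all promoters, and the Bmp6 and Gja4 promoters each held 1 GC box (35.6% of all). The single TATA box match was in Bmp15, on the reverse strand, and such a match is found in 13.6% of all promoters. These matches describe the letters of the window only.

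The libraries differed in depth, with 7888140, 2692510 and 3166564 reads in valid windows in replicates 1, 2 and 3, so that 1 read in a window was worth 0.136, 0.396 and 0.338 RPKM. Replicate 2 was prepared with less antibody than the others. Over all windows the mean was 0.903, 0.900 and 0.903 RPKM. Pools were not said to come from separate animals, and p-values and SDs therefore measure the spread between these pools. Whether more oocytes carried the mark at a locus or each carried more of it cannot be told apart in pools. Intervals given below are exact 95% Poisson intervals on recovered reads and cover counting error only.

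The oocyte identity of the pools was read from marker gene bodies. Over all protein-coding genes with at least 2 valid windows, the mean level over the body was above 1 RPKM at 53.8% (median 1.16 RPKM). It was above 1 at 9 of 10 oocyte genes (median 2.13 RPKM). The exception was Sohlh1, a transcription factor gene of early oocytes, at 0.330 ± 0.173 RPKM (SD, n = 3). The level was above 1 at 4 of 12 granulosa cell genes (median 0.579 RPKM). These 4 were Kitl, Nr5a2, Hsd17b1 and Amh, named after their values were seen, and Fshr, the follicle stimulating hormone receptor gene, was at 0.353 ± 0.031 RPKM (SD, n = 3).

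All 5 genes carried H3K36me3 over their bodies. The mean body level, that is the mean RPKM over the windows that touch the gene, was above 1 RPKM, the study's threshold for enrichment, at 5 of 5 genes, against 53.8% of the 20313 protein-coding genes with at least 2 valid windows (median 1.16 RPKM). By window, 93 of the 94 body windows were above 1, against 31.8% of all valid windows and 51.2% of windows that overlap a protein-coding gene. Of these 93, 76 were above 1 in each replicate. Since Bmp6 contributed 79 of the windows, the other 4 genes were also counted alone, and 14 of their 15 windows were above 1. The flanks were also above these background shares, with 33 of 50 windows (66%) above 1, of which 13 were above 1 in each replicate.

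Bmp15, the X-linked ligand gene that is a close relative of Gdf9, had the highest level of the 5. It was 2.58, 4.56 and 4.06 RPKM in replicates 1, 2 and 3, or 3.73 ± 1.03 RPKM (SD, n = 3) from 170 reads, the percentile 99.9 among protein-coding genes. Replicate 1, the deepest library, was the lowest, and its interval of 2.03 to 3.23 RPKM did not overlap that of replicate 2, 3.34 to 6.08 RPKM.

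Bmp6, a BMP ligand gene of 155196 bp, came second with 2.32, 2.69 and 2.56 RPKM, or 2.52 ± 0.19 RPKM (SD, n = 3). Its 2485 reads made it the best measured of the 5, with an interval of 2.2 to 2.45 RPKM in replicate 1.

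Fgf8, which acts on cumulus granulosa cells together with BMP15, had 2.41, 1.78 and 2.96 RPKM, or 2.39 ± 0.59 RPKM (SD, n = 3) from 124 reads. The connexin gene Gja4 had 2.17, 1.59 and 3.16 RPKM, or 2.31 ± 0.79 RPKM (SD, n = 3) from 88 reads over 3 windows. In both genes replicate 2 was the lowest, and at Gja4 it rested on 12 reads, with an interval of 0.819 to 2.77 RPKM.

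Gdf9, the ligand needed for follicles to grow past the primary stage, had the lowest level, with 2.04, 1.78 and 1.69 RPKM, or 1.84 ± 0.18 RPKM (SD, n = 3) from 98 reads. Its percentile among protein-coding genes was 70.6, against 93.8 for Bmp6, 90.4 for Fgf8 and 87.7 for Gja4.

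The order of the 5 levels was only partly resolved. Bmp15 was above each of the other 4 genes in 3 of 3 replicates and Bmp6 was above Gdf9 in 3 of 3, and these were the 5 of 10 pairs with a single direction. The log2 ratio of body levels was 0.51 ± 0.32 (SD, n = 3) for Bmp15 over Bmp6, 0.61 ± 0.62 for Bmp15 over Fgf8, 0.69 ± 0.68 for Bmp15 over Gja4, 0.95 ± 0.54 for Bmp15 over Gdf9 and 0.44 ± 0.22 for Bmp6 over Gdf9. By a two-sided exact permutation test that flips the signs of the replicates, each of these had p = 0.25, the smallest p that 3 replicates allow, and an adjusted p of 0.5 over the 10 pairs. Among neighbours in the order, Bmp6 and Fgf8 (log2 ratio 0.10 ± 0.41), Fgf8 and Gja4 (0.07 ± 0.14) and Gja4 and Gdf9 (0.26 ± 0.53) did not differ beyond their spread. The level of Gja4 was 3.46 RPKM when only windows with their midpoint in the gene were counted, and it then stood above Bmp6 and Fgf8. Bmp15 over Gja4 was then 0.19 ± 0.87 on the log2 scale, with p = 1 in the same exact permutation test, so the order of these 2 genes rests on which windows are counted.

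**Figure D1:**
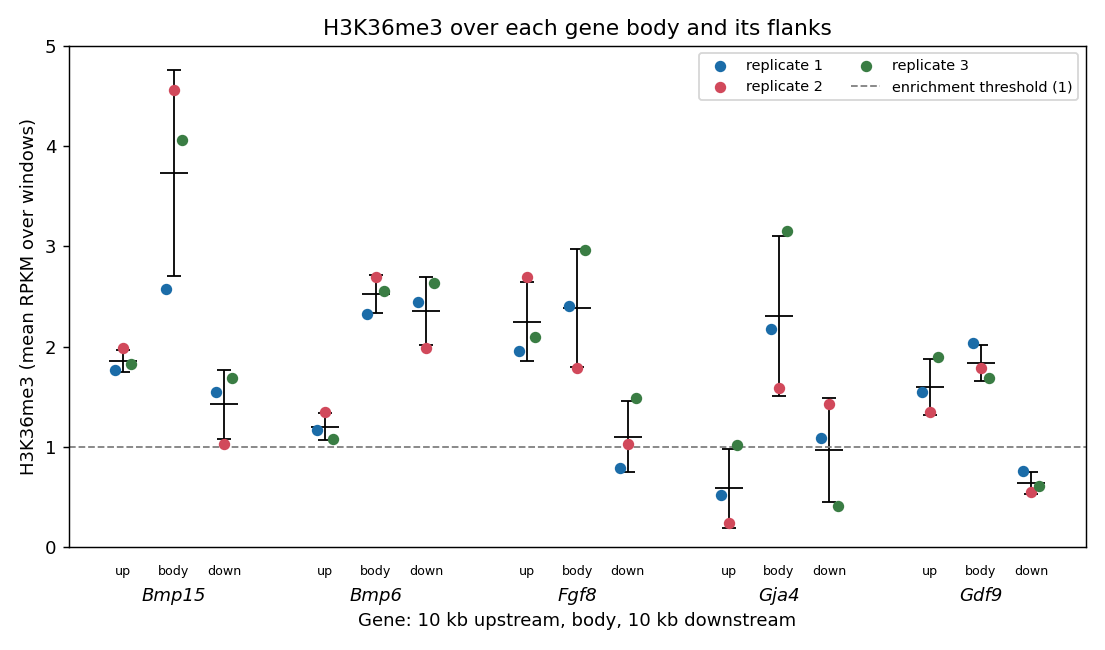
H3K36me3 level (mean RPKM over windows, linear axis) in the 10 kb upstream, the body and the 10 kb downstream of each gene, with 1 point per replicate and bars for the mean ± SD (n = 3). The 5 bodies lie above the dashed threshold of 1 RPKM in every replicate, while the downstream side of Gdf9 and the upstream side of Gja4 have means of 0.642 and 0.590 RPKM.

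The bodies stood above their flanks to different degrees. The flank mean was 0.781 ± 0.063 RPKM at Gja4, 1.12 ± 0.15 at Gdf9, 1.64 ± 0.13 at Bmp15, 1.68 ± 0.27 at Fgf8 and 1.78 ± 0.10 at Bmp6 (SD, n = 3). On the log2 scale with a pseudocount of 0.1 RPKM, Gja4 was above its flanks by 1.33, 0.85 and 2.01 in replicates 1 to 3, a mean of 1.40 ± 0.58. Bmp15 was above its flanks by 0.61, 1.54 and 1.16, a mean of 1.10 ± 0.47. At both genes no other annotated gene lay within 10 kb.

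The differences were smaller at Gdf9, Bmp6 and Fgf8, where 4, 9 and 4 of the 10 flank windows overlap another gene. The log2 ratio of body over flanks was 0.77, 0.84 and 0.41 at Gdf9 (mean 0.67 ± 0.23), and 0.35, 0.66 and 0.44 at Bmp6 (mean 0.48 ± 0.16). At Fgf8 it was 0.77, -0.06 and 0.69 (mean 0.47 ± 0.46), so that replicate 2 showed no higher body. The body was above the flanks in 3 of 3 replicates at 4 of the 5 genes, against 44.4% of 20298 protein-coding genes. For these 4 the exact sign-flip permutation test gave p = 0.25 (adjusted p = 0.3125 over 5 genes), and for Fgf8 p = 0.5. With flank windows that overlap another gene left out, the ratio was 1.37 ± 0.36 at Bmp6, 1.18 ± 0.38 at Gdf9 and 0.74 ± 0.29 at Fgf8, each higher in 3 of 3 replicates. The Bmp6 value then rests on 1 flank window with 12 reads.

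Gdf9 lies on the plus strand of chromosome 11 (53431023 to 53437904; ENSMUSG00000018238.6), head to head with Uqcrq, a gene for a subunit of mitochondrial complex III whose start is 191 bp away. H3K36me3 was low at the start shared by both genes and higher inside each of them. The start window of Gdf9, which also overlaps Uqcrq, had 1.36, 1.19 and 0.338 RPKM, a mean of 0.962, and was the only one of the 94 body windows not above 1. The next 3 windows into Gdf9 had means of 1.95, 2.70 and 1.73 RPKM, and the window on the Uqcrq side had 2.80 ± 0.40 RPKM (SD, n = 3).

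The mean level fell past the 3′ end of Gdf9. Of the 5 downstream windows, 1 was again above 1, with 0.951, 1.59 and 1.35 RPKM in replicates 1 to 3. The first window past the end had 1.36, 0.396 and 0 RPKM, a mean of 0.585, and the 10 kb downstream had 0.642 ± 0.107 RPKM, so that the body was above it by 1.39 ± 0.12 on the log2 scale in 3 of 3 replicates (exact sign-flip permutation test, p = 0.25). The upstream side, where 4 of 5 windows overlap Uqcrq, Leap2 or Aff4, had 1.60 ± 0.28 RPKM, and the body was higher in 2 of 3 replicates. The unbroken run of windows above 1 at Gdf9 was 6 kb, from 53432001 to 53438000. Without replicate 3 the run was 12 kb and took in the start window.

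Bmp15 lies on the minus strand of chromosome X (6314107 to 6320721; ENSMUSG00000023279.7), with the nearest annotated genes, Shroom4 and Nudt10, 79.1 and 141 kb away. H3K36me3 peaked over the gene and was lower, but still mostly above 1, around it. From the start window onward the 4 body windows had 3.46 ± 1.05, 4.48 ± 0.47, 3.97 ± 1.62 and 3.02 ± 1.09 RPKM (SD, n = 3), each above 1 in every replicate. The level of the start window lay within the range of the other 3. The upstream side had 1.86 ± 0.11 RPKM and the downstream side 1.42 ± 0.35 RPKM, and the body was above each in 3 of 3 replicates.

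The run of windows above 1 at Bmp15 was 30 kb long and reached 20.1 kb past the 3′ end and 3.28 kb upstream of the start. Its end was a window of 0.249 RPKM downstream and one of 0.452 RPKM upstream. Beyond the latter, the 3 farthest upstream windows were at 2.37, 2.55 and 2.54 RPKM, with no annotated gene. The run was 10 kb without replicate 2, 16 kb without replicate 3 and 8 kb when each replicate had to be above 1, which left the 4 body windows.

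Fgf8 lies on the minus strand of chromosome 19 (45736798 to 45742915; ENSMUSG00000025219.13), downstream of Npm3, a nucleoplasmin family gene, and Mgea5, which encodes the enzyme that removes O-GlcNAc from proteins. H3K36me3 at Fgf8 was highest in the 3′ part of the gene and was continuous with the mark over these upstream neighbours. From the start window onward the means were 1.59 ± 0.37, 1.65 ± 1.09, 3.56 ± 0.16 and 2.74 ± 1.15 RPKM (SD, n = 3). The third of these windows had 3.39, 3.57 and 3.72 RPKM and was the most even over replicates of the 15 windows at the 4 short genes.

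Upstream of Fgf8 the level was 2.25 ± 0.39 RPKM, which did not differ from the body beyond the spread (log2 difference 0.07 ± 0.56, body higher in 2 of 3 replicates). Npm3 had 2.00 ± 0.90, the antisense gene Gm15491 1.92 ± 0.39 and Mgea5 2.23 ± 0.07 RPKM. Downstream the level was 1.10 ± 0.36 RPKM, below the body in 3 of 3 replicates by 1.06 ± 0.39 on the log2 scale. The run of windows above 1 was 48 kb, ended 0.797 kb past the 3′ end of Fgf8 and reached 41.1 kb upstream across all 3 neighbours. It was 4 kb when each replicate had to be above 1.

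Gja4 lies on the minus strand of chromosome 4 (127311421 to 127314039; ENSMUSG00000050234.7), with no other annotated gene within 10 kb. The mark was highest inside Gja4 and low upstream of it, while 3 of the 5 downstream windows were above 1 with means of 1.20, 1.30 and 1.47 RPKM. The middle window, which lies wholly inside the gene, had 3.67, 1.98 and 4.74 RPKM, a mean of 3.46 ± 1.39, and the window at the 3′ end had 2.10 ± 0.25 RPKM (SD, n = 3). The start window had 0.951, 0.396 and 2.71 RPKM, so only replicate 3 was above 1 there.

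The upstream side of Gja4 had 0.516, 0.238 and 1.02 RPKM, a mean of 0.590 ± 0.394, and the body was above it by 1.92 ± 0.39 on the log2 scale in 3 of 3 replicates (exact sign-flip permutation test, p = 0.25). The downstream side had 1.09, 1.43 and 0.406 RPKM, a mean of 0.973 ± 0.520. The body was higher in 3 of 3 replicates, by 1.26 ± 1.30 on the log2 scale, a difference no larger than its spread, and in replicate 2 it was at 1.59 against 1.43 RPKM. The run of windows above 1 at Gja4 was 8 kb and extended 3.96 kb upstream of the start. It was 4 kb without replicate 3.

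**Figure D2:**
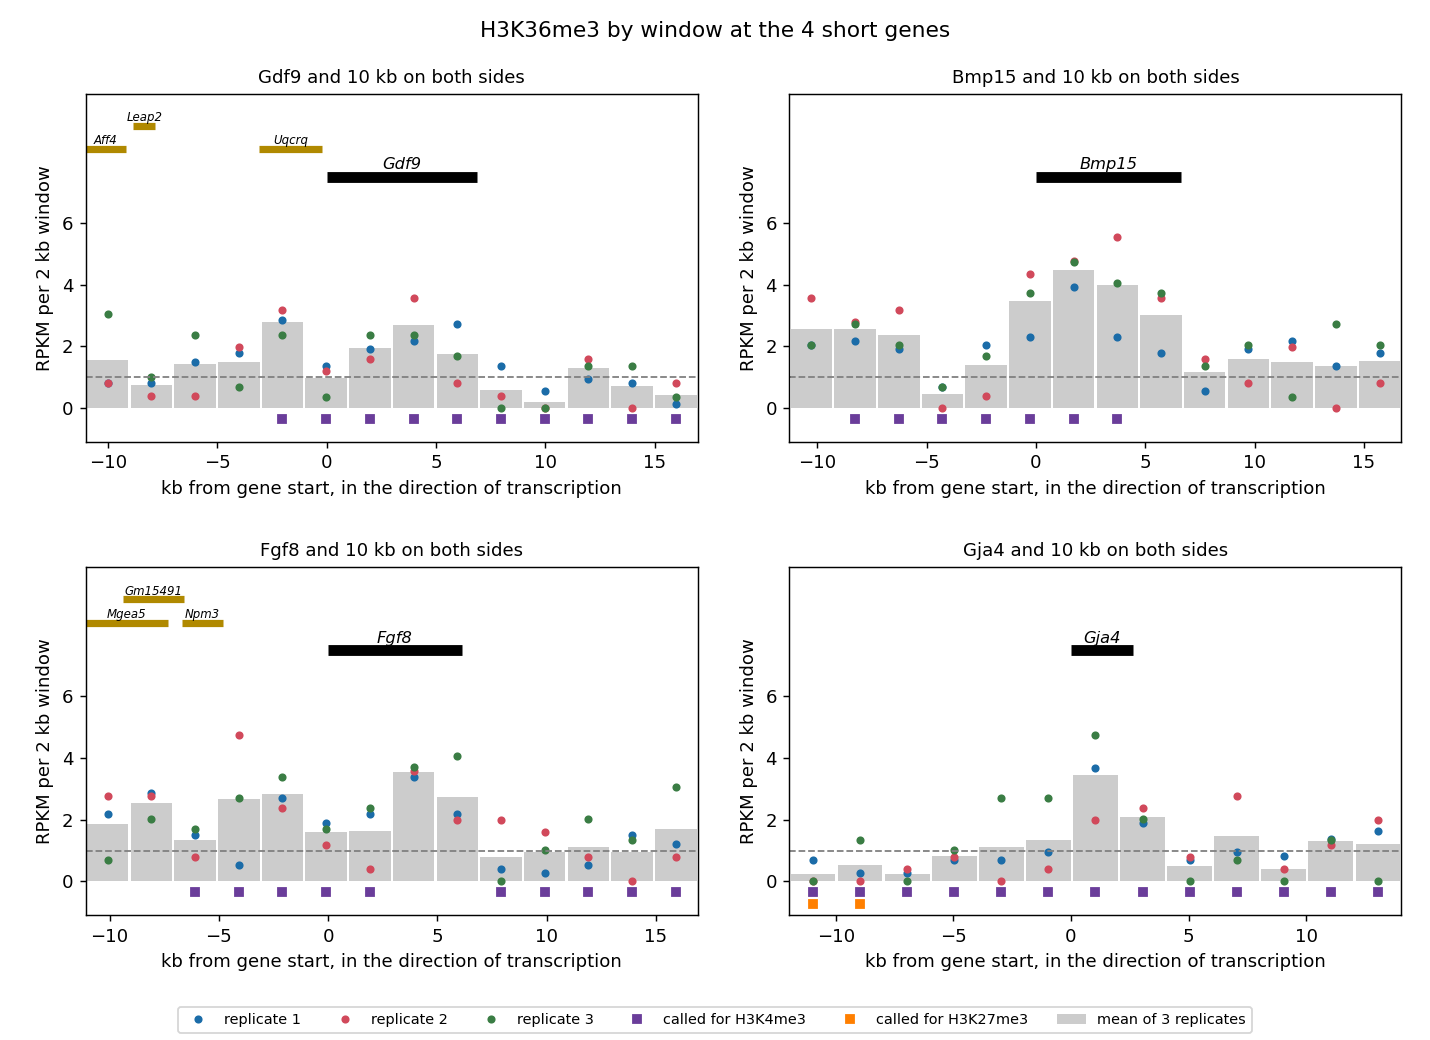
H3K36me3 (RPKM per 2 kb window) against the distance of the window's midpoint from the gene start in kb, in the direction of transcription, for Gdf9, Bmp15, Fgf8 and Gja4 with 10 kb on both sides. Grey bars are means of 3 replicates, points are replicates, black bars the genes, brown bars their annotated neighbours, and squares windows called for H3K4me3 or H3K27me3. The highest windows are 2.80 RPKM on the Uqcrq side of Gdf9 and 4.48, 3.56 and 3.46 RPKM inside Bmp15, Fgf8 and Gja4.

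Bmp6 lies on the plus strand of chromosome 13 (38345107 to 38500302; ENSMUSG00000039004.6) and was marked from end to end. All of its 79 windows had a mean above 1, and 65 were above 1 in each replicate. When the gene was divided into 10 equal parts, the mean level ran from 2.22 to 3.01 RPKM, with 3.01 ± 0.27 in part 1, at the start, and 2.54 ± 0.57 in part 10 (SD, n = 3). Part 1 was the highest of the 10 in replicates 1 and 3, and in replicate 2 it had 3.23 RPKM beside 3.27 RPKM in part 3.

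Single windows of Bmp6 ran from 1.07 to 4.35 RPKM. The lowest, 25.9 kb into the gene, had 1.63, 1.59 and 0 RPKM, and the highest, 11.9 kb into it, had 3.26, 6.74 and 3.05 RPKM. The 9 windows that hold an exon had a mean of 2.62 RPKM and the 70 without one 2.51 RPKM. Windows with an exon were lower in replicate 1 (2.13 against 2.35 RPKM) and higher in replicates 2 and 3.

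The level was lower upstream of Bmp6 than downstream of it. The window before the start window had 0.951, 1.19 and 0.677 RPKM, a mean of 0.939. The start window had 0.951, 1.98 and 2.03 RPKM, a mean of 1.65 ± 0.61, so replicate 1 showed no step between the 2 windows. Of the 5 upstream windows, 3 were above 1. The upstream side was at 1.20 ± 0.14 RPKM, below the body in 3 of 3 replicates by 1.02 ± 0.13 on the log2 scale (exact sign-flip permutation test, p = 0.25). It holds the end of the lincRNA gene Gm47990 (1.78 ± 0.03 RPKM). The downstream side was at 2.36 ± 0.34 RPKM, and the body was higher in 1 of 3 replicates.

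All 5 downstream windows of Bmp6 overlap Txndc5, a protein disulfide isomerase family gene on the opposite strand whose 3′ end overlaps that of Bmp6, and which had 2.2 ± 0.03 RPKM. The run of windows above 1 was therefore 190 kb, covering both genes and ending 33.7 kb past Bmp6, and it ran 1.11 kb before the Bmp6 start. Leaving out 1 replicate shortened it to between 128 and 156 kb. The longest stretch within it above 1 in each replicate was 36 kb. The 4 windows of Bmp6 that overlap the antisense gene 4930579J19Rik had 2.17, 1.29 and 1.44 RPKM, a mean of 1.63 ± 0.47. They were below each of the 10 parts of the gene in replicates 2 and 3 but not in replicate 1. ChIP-seq carries no strand, so the mark cannot be assigned to either gene there.

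**Figure D3:**
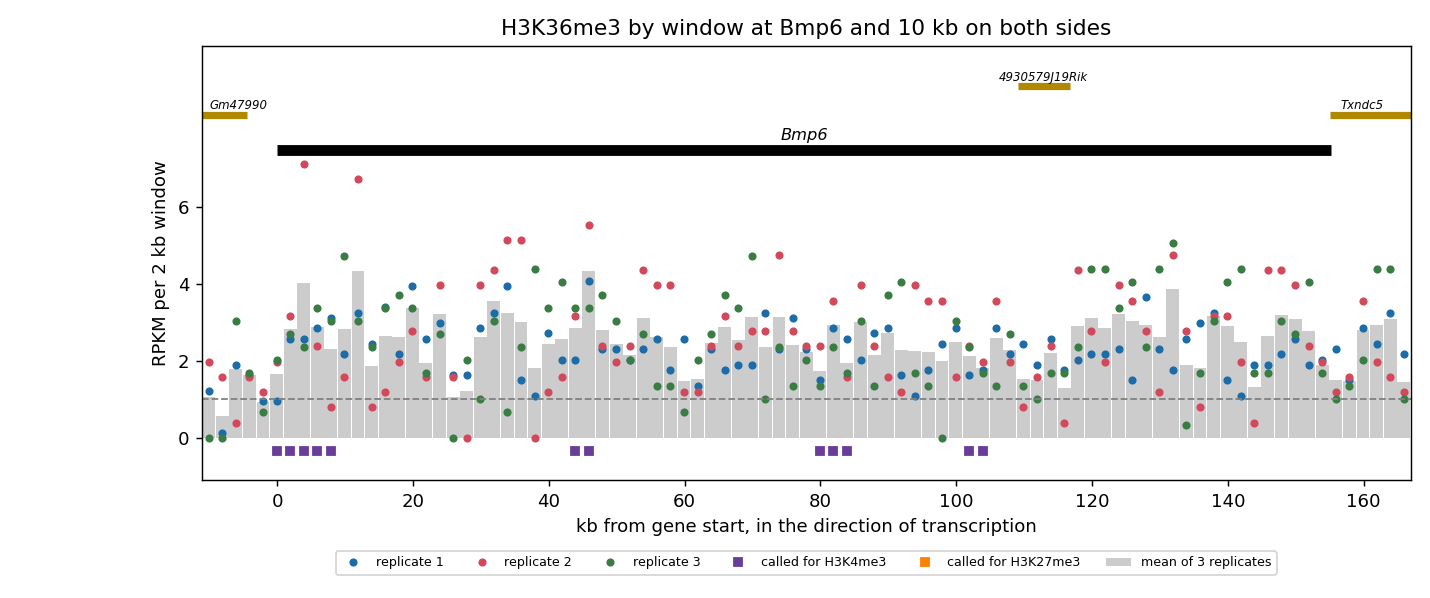
H3K36me3 (RPKM per 2 kb window) against the distance of the window's midpoint from the Bmp6 start in kb, with grey bars for the mean of 3 replicates, points for replicates, the gene in black, its neighbours in brown, the threshold of 1 RPKM dashed, and squares for windows called for H3K4me3. All 79 body means exceed 1, and the 12 body windows called for H3K4me3 lie at the start and in 3 groups further in.

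H3K4me3, a promoter mark that also forms broad domains in untranscribed parts of the oocyte genome, and H3K27me3, the Polycomb mark, were available as the authors' calls per window from earlier libraries of GV oocytes, with no replicate values. No body window of the 5 genes was called for H3K27me3 (0 of 94, and 0 of 15 without Bmp6), against 30.0% of all valid windows. That share is not a matched one. Of the 94 windows, 93 were called for H3K36me3, which the paper describes as usually not overlapping H3K27me3. The only H3K27me3 calls were in 2 flank windows, the farthest upstream of Gja4. H3K4me3 was called in 24 of 94 body windows, against 28.3% of all windows, and in 28 of 50 flank windows.

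H3K36me3 and H3K4me3 calls coincided in a larger share of windows at the short genes than at Bmp6. Of the body windows called for H3K36me3, 23 of 93 (24.7%) were also called for H3K4me3, against 16.0% of all H3K36me3 windows. At the 4 short genes it was 11 of 14 windows (78.6%) and at Bmp6 12 of 79, against 36.8% of H3K36me3 windows over protein-coding genes in the same range of length as the 4. By gene, H3K4me3 was called in 4 of 4 body windows of Gdf9, 3 of 3 of Gja4, 3 of 4 of Bmp15, 2 of 4 of Fgf8 and 12 of 79 of Bmp6. At Bmp6, 5 of these were the 5 windows at the start, and 7 lay in groups of 2 or 3 further in. H3K4me3 was also called in all 5 downstream windows of Gdf9 and Fgf8 and all 10 flank windows of Gja4. The mean H3K36me3 level there was 0.642, 1.10 and 0.781 RPKM. At Fgf8, where H3K36me3 was highest in the 2 body windows at the 3′ end, the H3K4me3 calls left these windows out. At Bmp15 they covered the start, the 2 middle windows and 4 of 5 upstream windows but none downstream.

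Base composition and level did not run in one direction across the 5 genes. The GC content of body windows was above that of the flanks at Gdf9 (48.5% against 45.4%), Bmp15 (41.6% against 40.7%), Fgf8 (55.9% against 49.96%) and Gja4 (54.7% against 48.2%), and below it at Bmp6 (44.8% against 46.9%). Bmp15, with the highest H3K36me3 level, had the lowest CpG density in its body at 8.0 CpGs per kb, and Fgf8 had the highest at 35.1. The part of composition in the levels was not tested.

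The rest of the signalling pathway was counted from gene lists, with a gene taken as marked when its mean body level was above 1 RPKM. Among receptors and SMADs, 15 of 21 were marked (71.4%, median 1.39 RPKM), against the 53.8% of all protein-coding genes. Smad3, which carries the signal of GDF9, was the highest at 2.79 ± 0.30 RPKM, and Bmpr2, the type II receptor of GDF9 and BMP15, had 2.12 ± 0.07 RPKM. Fgfr1 had 2.17 ± 0.05, Fgfr3, the median, 1.39 ± 0.14, Tgfbr1 1.17 ± 0.10 and Tgfbr2, the lowest, 0.406 ± 0.079 RPKM (SD, n = 3). The annotated Fgfr2 gene spans 2960900 bp, so its level describes far more than the receptor's exons.

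Proprotein processing enzymes and extracellular antagonists were marked in 3 of 8 cases (37.5%, median 0.759 RPKM), against 53.8% of all protein-coding genes. Bmper, a BMP binding protein, was the highest at 1.97 ± 0.12 RPKM, Furin, which cleaves TGF-beta family precursors, had 1.38 ± 0.37, and Fst, the gene of the activin antagonist follistatin, was the lowest at 0.294 ± 0.282 RPKM. The 2 genes next to the median were Pcsk6 (0.728 RPKM) and Nog (0.790 RPKM).

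The relatives of the 4 ligands were mostly unmarked. Of 28 other TGF-beta and FGF ligand genes, 8 were above 1 (28.6%, median 0.521 RPKM), against 53.8% of all protein-coding genes. At least 1 window called for H3K27me3 was found in 24 of the 28. Such a window was found in 44.5% of protein-coding genes and in none of the 5 described here, and the share depends on the length of the genes. Fgf7 was the highest at 2.16 ± 0.32 RPKM, Bmp8b had 1.59 ± 0.40, Tgfb1 and Fgf2 lay next to the median at 0.531 and 0.511, and Bmp10 was the lowest at 0.185 ± 0.193 RPKM. The mean levels of Bmp15, Bmp6 and Fgf8 were above those of all 28, and Gdf9 at 1.84 RPKM was below Fgf7 and Tgfb3 (1.92 ± 0.10, named after its value was seen). These differences between lists were not tested.

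The other connexin genes were mostly unmarked as well. Of 18 genes 17 were measured, all but Gjd3. Against 53.8% of all protein-coding genes, 3 of the 17 were above 1 (17.6%, median 0.509 RPKM, the level of Gjb5). Among them, named after their values were seen, were Gja10, the highest of the list at 1.92 ± 0.27 RPKM, and Gja6 at 1.08 ± 0.40 RPKM, both below the mean of 2.31 ± 0.79 RPKM at Gja4, a difference that was not tested. In replicate 2, Gja10 at 2.08 RPKM was above Gja4 at 1.59 RPKM, and it was below Gja4 in replicates 1 and 3. Gja1, which encodes connexin 43 of the granulosa cell junctions, had 0.397 ± 0.051 RPKM, Gja5 0.488 ± 0.102 and Gjc1 0.268 ± 0.127 RPKM. The annotated span of Gja5 is 172724 bp, so its level describes more than the connexin exons. H3K27me3 was called in at least 1 window of 15 of the 17, against the same 44.5% of protein-coding genes.

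Against cell type genes, the 5 genes were set beside 3 zona pellucida genes, which the oocyte secretes as its coat, and 12 granulosa cell genes. The mean log2 level of the 5 was above that of the granulosa cell genes by 1.60, 1.53 and 2.14 in replicates 1 to 3, a difference of 1.76 ± 0.33, and above that of Zp1, Zp2 and Zp3 by 0.07, 0.17 and 0.24, a difference of 0.16 ± 0.08. In the exact sign-flip permutation test each had p = 0.25 (adjusted p = 0.25 over the 2 comparisons), the smallest possible. With the median over genes in place of the mean, the zona difference was 0.14 ± 0.29 with p = 0.75 in the same exact test. The granulosa list holds Kitl, the gene of the ligand that acts on the oocyte's KIT receptor, at 1.46 ± 0.11 RPKM. The highest gene of that list was Nr5a2 at 2.02 ± 0.20 RPKM. Its level was above that of Gdf9 (1.84 ± 0.18 RPKM) in replicates 2 and 3 and below it in replicate 1, so the lists overlap.

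**Figure D4:**
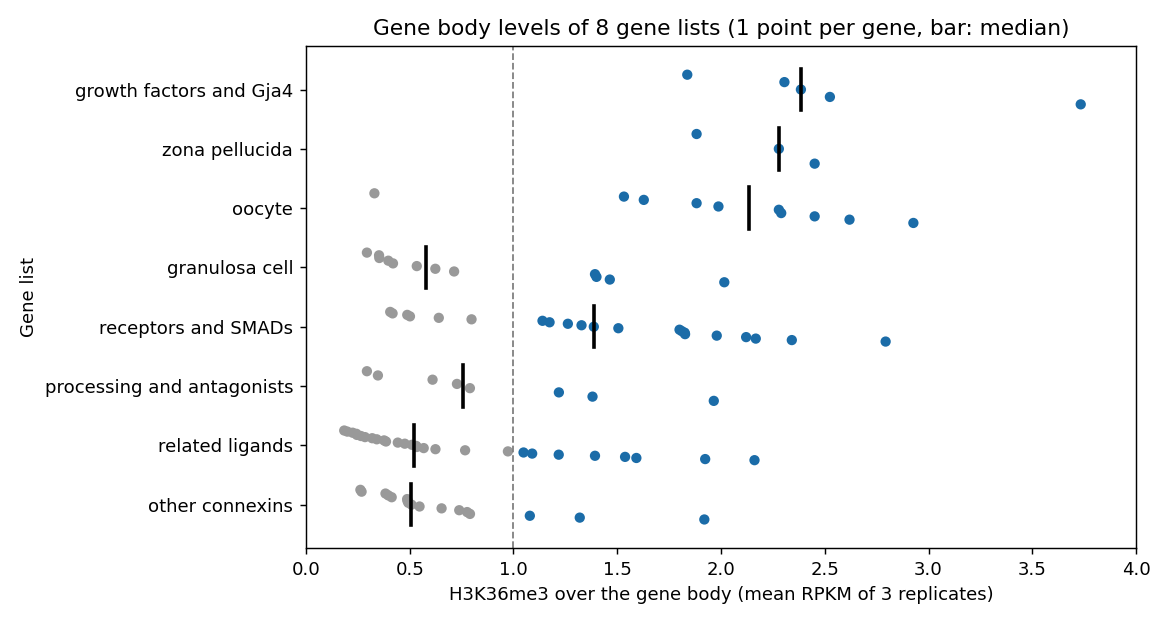
Mean H3K36me3 level over the gene body (RPKM, mean of 3 replicates, linear axis) of each measured gene in 8 lists, with 1 point per gene, blue above 1 RPKM and grey otherwise, and a black bar at each list's median. The 5 growth factor and connexin genes (median 2.39 RPKM) and the zona genes (2.28) all lie above 1, while 20 of 28 related ligands and 14 of 17 other connexins do not.

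For each of the 5 genes, the protein-coding genes of 0.5 to 2 times its length with the most similar profile were found by the root mean square difference over 15 points, made of 5 windows before the start, 5 parts of the body and 5 windows after the end. For Gdf9 they were B4galt7 (0.328 RPKM) and Srf (0.362 RPKM) among 5660 candidates with a median difference of 1.13 RPKM. For Bmp15 they were P2ry4 (0.546) and AU015836 (0.707), both on chromosome X like Bmp15 itself, against a median of 2.02 RPKM. Bmp6 was most like Mrtfa (0.319) and Baiap2l1 (0.329), Fgf8 like Adamtsl4 (0.353) and Vps9d1 (0.390), and Gja4 like Ctsw (0.283) and Txnip (0.439), against medians of 1.31, 1.50 and 1.50 RPKM. This is a description of the means of the 3 replicates and says nothing of shared function or control.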

How the data were processed

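H3K36me3 ULI-nChIP-seq was performed on 3 pools of GV oocytes. The authors trimmed single-end reads with TrimGalore, mapped them to GRCm38 with Bowtie2 2.2.9, counted them in SeqMonk over adjacent 2 kb windows and left out windows with extreme input signal. The deposited values are RPKM per replicate, not pooled, and duplicate removal is not given in the sources used here. In each library all values (100%, tolerance 0.01) were whole multiples of what 1 read was worth, which gave reads per window. Whether the window length was divided out is not given in the sources used here, so levels are compared only between windows of equal size. A second deposited table names the marks that the authors called in each window at an RPKM above 1, and its H3K36me3 calls matched a mean RPKM above 1 in every window.

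A gene's body was every valid window that overlaps it in GENCODE M21, its flanks 5 windows on each side, and its level the mean RPKM of those windows. Levels were compared over the 3 replicates with two-sided exact sign-flip permutation tests on log2(RPKM + 0.1), adjusted by the Benjamini-Hochberg method, which cannot reach p = 0.05 with 3 replicates. No count model was fitted, since there was 1 group. Recovered reads gave Poisson intervals. Reads per window had a median of 4, 1 and 1 in replicates 1 to 3, so single windows are imprecise.

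The text names the 5 genes, every annotated gene within their flanks, the 2 genes of most similar profile each, and of each list the highest, the lowest, the median and 10 fixed examples. A few genes that this rule names are not reported here. The members, lists and tests were chosen with earlier results of these data known. Alternatives were other body windows, flank lengths, pseudocounts, thresholds, a minimum of 3 reads per window, and each replicate left out. The scripts, in Python 3.11.15 with numpy 2.4.6, pandas 2.3.3, scipy 1.17.1, matplotlib 3.10.9 and pysam 0.24.0, were tested on simulated data.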

Additional observations from a re-analysis of the deposited data

How the results depend on the processing

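Of 55 alternatives for the body against flanks, 55 kept the direction of the mean and the side of the threshold. For the list comparisons 18 of 18 did so. The tests cannot pass 0.05, so this bears on the direction of the mean only. Without replicate 1 or without replicate 3, the Fgf8 body was higher in only 1 of the 2 replicates left. The log2 ratios were then 0.32 ± 0.53 and 0.36 ± 0.59 (SD, n = 2). Counting only windows with their midpoint in the gene or wholly inside it moved the body level of Gdf9 from 1.84 to 2.13 and 2.33 RPKM and that of Gja4 from 2.31 to 3.46 RPKM in both cases, and 31 of 35 level alternatives moved by less than 1 SD. Of 80 alternatives for pairs, 9 turned the direction. For these body windows the log2 ratio became -0.024 and -0.010 for Bmp6 over Fgf8, -0.35 for Bmp6 over Gja4 in both cases, and -0.32 and -0.34 for Fgf8 over Gja4. With 1 replicate left out it ran from -0.13 (without replicate 2) to 0.26 for Bmp6 over Fgf8, from -0.10 (without replicate 2) to 0.41 for Bmp6 over Gja4, and from -0.036 (without replicate 3) to 0.48 for Gja4 over Gdf9.

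Flank windows above the threshold fell from 33 of 50 to 17 at 1.5 RPKM, 10 at 2 RPKM and 13 when each replicate had to pass 1. Of 35 alternatives for the length of runs, 21 moved it by over 1.5 times. At thresholds of 1.5 and 2 RPKM and with each replicate above 1, the runs were 8, 8 and 8 kb at Bmp15, 54, 20 and 36 kb at Bmp6, 12, 4 and 4 kb at Fgf8 and 4, 4 and 4 kb at Gja4, and at Gdf9 2 kb at 2 RPKM. With 1 window at or below 1 bridged, they were 72 kb at Gdf9, 210 kb at Bmp15, 340 kb at Bmp6 and 18 kb at Gja4. Leaving out 1 replicate gave 6 to 12 kb at Gdf9, 10 to 30 kb at Bmp15 and 4 to 8 kb at Gja4.

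Borders are placed to 1 window of 2 kb and, at 1 to 4 reads per window in the median, the length of a run depends on single windows with few reads. Genes of 3 or 4 windows share their end windows with the surrounding sequence. H3K4me3 and H3K27me3 calls have no error here. No paired analysis was possible because the series has 1 group, so replicate numbers pair no samples across groups. The comparisons reported are between regions or genes within each replicate.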
